A study of Mus musculus with 16 samples.

Results

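Barcodes with more than 4000 detected genes were described in Drop-seq profiles of 2 mouse models of triple-negative mammary cancer. They were chosen by their depth alone, as cell barcodes with over 4000 genes holding at least 1 unique molecular identifier (UMI, 1 counted transcript) and under 20% of UMIs from mitochondrially encoded genes. A filter of the study on detected genes removes them. Of the 8000 barcodes listed in the 8 HiSeq count tables, 174 met this rule, 40 in WB1P and 134 in WB1P-Myc. Because gene number selected them, their high gene and UMI counts are a description and not a result. Below, they are called deep barcodes, and the 4798 barcodes of 450 to 4000 genes and under 20% mitochondrial UMIs that the filter keeps are called comparator barcodes.

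The genotype behind the WB1P model is WapCre;Brca1F/F;Trp53F/F. Cre recombinase, made under the Wap promoter of milk-producing mammary epithelium, deletes Brca1 and Trp53 there. WB1P-Myc tumours carry the same alleles and a Cre-activated Myc-IRES-Luc construct in the Col1a1 locus, so both models lose these tumour suppressors in the cells that made Cre. All tumours were untreated, and the age of the mice is not given in the labels. Tumours were dissociated, live singlets were sorted by flow cytometry as cells negative for the dye dapi, and 4 droplet fractions per model were sequenced. Tumours of 2 mice per model were used, but no fraction is assigned to a mouse. The labels describe 1 sample of cells per model, divided into fractions during droplet generation, so fractions are technical, and model and sample cannot be told apart. Each model therefore counts as 1 sample, no p-value is given, and values of the 4 fractions are printed to show their spread.

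A Drop-seq barcode stands for 1 bead in 1 droplet. A barcode can be much deeper than others when its cell is large and rich in RNA, when its droplet or bead was captured well, or when 2 cells entered the same droplet. A droplet with 2 cells of different lineage holds marker transcripts of both, whereas 2 cells of the same lineage cannot be recognised in this way. Dividing cells double their content before mitosis, and S phase is marked by replication genes such as Pcna and the Mcm helicase subunits while G2/M is marked by mitotic genes such as Cdk1, Ccnb1 and Ube2c. These are background facts, and no cause of high depth was tested here.

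The deep barcodes were few but held a large part of all counted transcripts. In WB1P, fractions 1 to 4 held 0, 10, 14 and 16 deep barcodes beside 65, 426, 394 and 422 comparator barcodes. In WB1P-Myc, the fractions held 19, 26, 52 and 37 beside 950, 889, 756 and 896. They made up 2.97% of the barcodes passing either rule in WB1P (95% Clopper-Pearson interval 2.13 to 4.02) and 3.70% in WB1P-Myc (3.11 to 4.36), yet 27.8% and 26.8% of the 5740712 and 16710713 UMIs of the 2 models. Intervals here and below cover counting error only.

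The median deep barcode held 29375 UMIs in WB1P (13569 to 117023) and 20438.5 in WB1P-Myc (13248 to 283555), against medians of 1724 and 2359 in the comparator. Median gene numbers were 5552 and 4669, with highest values of 9078 and 11661. The 3 deepest barcodes, with 283555, 254035 and 230498 UMIs, all came from fraction 3 of WB1P-Myc. The smallest members had 4081 genes in WB1P and 4022 in WB1P-Myc. Just outside the rule, barcodes of 3800 to 4000 genes had median depths of 14429.5 UMIs in WB1P (n = 2) and 14697 in WB1P-Myc (n = 28), and just inside it, those above the limit with up to 4200 genes had 15103 (n = 3) and 16434 (n = 25). No barcode with over 4000 genes was lost to the mitochondrial limit. The highest mitochondrial share among members was 6.55% in WB1P and 7.18% in WB1P-Myc.

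**Figure D1:**
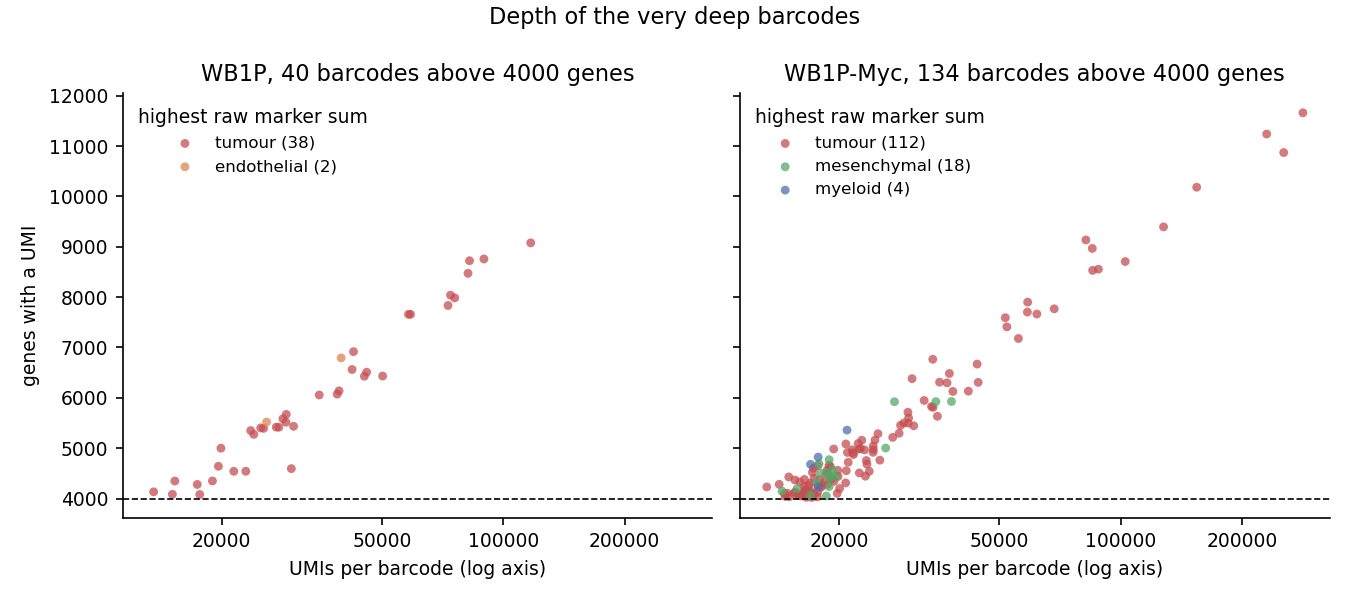
Detected genes against UMIs (log axis) of each deep barcode, 40 in WB1P and 134 in WB1P-Myc, coloured by the compartment with the highest raw marker sum. Depth runs from the 4000-gene line to 9078 genes in WB1P and 11661 in WB1P-Myc, and no barcode led by endothelial, mesenchymal or myeloid genes has more than 6793.

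Raw marker sums at full depth were compared first to see which lineages the deep barcodes hold. The lists covered 5 compartments: tumour (14 epithelial genes such as Epcam and the keratins, and 9 glial genes such as Sox10 and Mbp), myeloid, T or NK, mesenchymal (fibroblast and mural) and endothelial. Counting glial genes as tumour follows earlier results on these data, and whether glial barcodes of WB1P-Myc are tumour cells was not tested here. In WB1P, the tumour sum was the highest in 38 of 40 deep barcodes (95%, 83.1 to 99.4) against 475 of 1023 comparator barcodes of at least 1000 UMIs (46.4%). The other 2 deep barcodes were led by endothelial genes. In WB1P-Myc, the tumour sum led in 112 of 134 (83.6%, 76.2 to 89.4) against 1819 of 3100 (58.7%), while mesenchymal genes led in 18 and myeloid genes in 4. These sums were taken at each barcode's own depth, which is lower in the comparator.

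The level of the sums differed between the models. Epithelial sums in WB1P deep barcodes ran from 8 to 1539 UMIs with a median of 275, and glial sums from 0 to 20. In WB1P-Myc, epithelial sums ran from 0 to 2096 with a median of 16.5, and glial sums from 0 to 132 with a median of 10. Per 10000 UMIs, the median epithelial level was 79.0 in WB1P and 9.45 in WB1P-Myc deep barcodes. Those of WB1P were thus mostly rich in epithelial transcripts, apart from the 2 led by endothelial genes, with 8 and 19 epithelial UMIs. The sums of WB1P-Myc deep barcodes ranged from 0 to the highest seen.

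Other lineages were scarce in the deep barcodes. The median myeloid sum was 7.5 UMIs in WB1P and 3 in WB1P-Myc, and the median fibroblast sum 6 and 5. T or NK genes were at 0 in 34 of 40 and 109 of 134 barcodes, and endothelial genes at 0 in 17 and 59. B cell and plasma cell genes and mast cell genes were at 0 in all 40 WB1P deep barcodes, and no WB1P-Myc deep barcode had over 1 UMI of either. Neutrophil genes reached 19 and 37 UMIs, erythroid genes 8 and 1, adipocyte genes 1 and 1, and skeletal muscle genes 4 and 2.

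To compare lineages at equal depth, each barcode was thinned at random to 1000 UMIs, and it carried a compartment when at least 3 UMIs from at least 2 of its genes remained. Single random draws differed, so each share is the mean of 20 draws, with the lowest and highest draw in parentheses. Of the comparator barcodes, 284 in WB1P and 391 in WB1P-Myc had under 1000 UMIs and were left out. Tumour markers alone were carried by 88.5% of the WB1P deep barcodes (75 to 92.5), with a Clopper-Pearson interval of 73.2 to 95.8 for 35 of 40, against 34.0% of the comparator (interval 31.1 to 37.0). In WB1P-Myc the share was 47.8% (39.6 to 54.5), with an interval of 39.1 to 56.6 for 64 of 134, against 29.5% (interval 27.9 to 31.2). At this depth and limit the deep and comparator intervals did not overlap in either model. The WB1P-Myc shares moved with both settings, to 26.5% against 17.4% at 600 UMIs, 67.3% against 48.8% at 2000 UMIs and 26.2% against 16.1% with a limit of 5 UMIs. In WB1P they were 73.8% against 29.0%, 90.6% against 40.9% and 78.1% against 28.5%.

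The stromal compartments were thinly represented among deep barcodes. Myeloid barcodes were 0.25% of the WB1P deep set against 25.7% of the comparator, and 2.69% against 18% in WB1P-Myc. Mesenchymal barcodes were 0 of 40 against 19.1%, where a count of 0 allows a share of up to 7.50% (3 counts of 40), and 3.28% against 11.6% in WB1P-Myc. Endothelial barcodes were 4.13% against 2.05% in WB1P, with intervals of 0.611 to 16.9 and 1.28 to 3.12 that overlap, and 0 of 134 against 1.48% in WB1P-Myc, where 0 allows up to 2.24%.

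Read the other way, 37 of the 392 WB1P barcodes called tumour in most draws were deep (9.44%, 6.73 to 12.8), and none of 264 myeloid (up to 1.14%) or 195 mesenchymal ones (up to 1.54%). Of the 23 WB1P endothelial barcodes 2 were deep (8.70%, 1.07 to 28.0), an interval that contains the tumour value, and of the 165 carrying no compartment 1 was deep (0.606%). In WB1P-Myc, 63 of 963 tumour barcodes were deep (6.54%, 5.06 to 8.29), against 4 of 571 myeloid (0.701%) and 4 of 367 mesenchymal ones (1.09%). Of the 1230 WB1P-Myc barcodes carrying no compartment 63 were deep (5.12%, 3.96 to 6.51), with an interval that overlaps that of tumour barcodes, and none of 46 endothelial ones (up to 6.52%). The deepest myeloid barcode held 5875 UMIs in WB1P and 20955 in WB1P-Myc, and the deepest T or NK barcode 2405 and 2425.

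The tumour share of the deep set varied among fractions. It was 96.0%, 90.0% and 82.5% in WB1P fractions 2 to 4, and each value lay above the comparator value of the same fraction (31.9%, 33.5% and 33.1%). WB1P fraction 1 had no deep barcode. In WB1P-Myc it was 31.1%, 55%, 45% and 55.1% against 29.9%, 30.0%, 31.9% and 26.5%. The values of fraction 1, which rest on 19 deep barcodes, were close to each other.

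**Figure D2:**
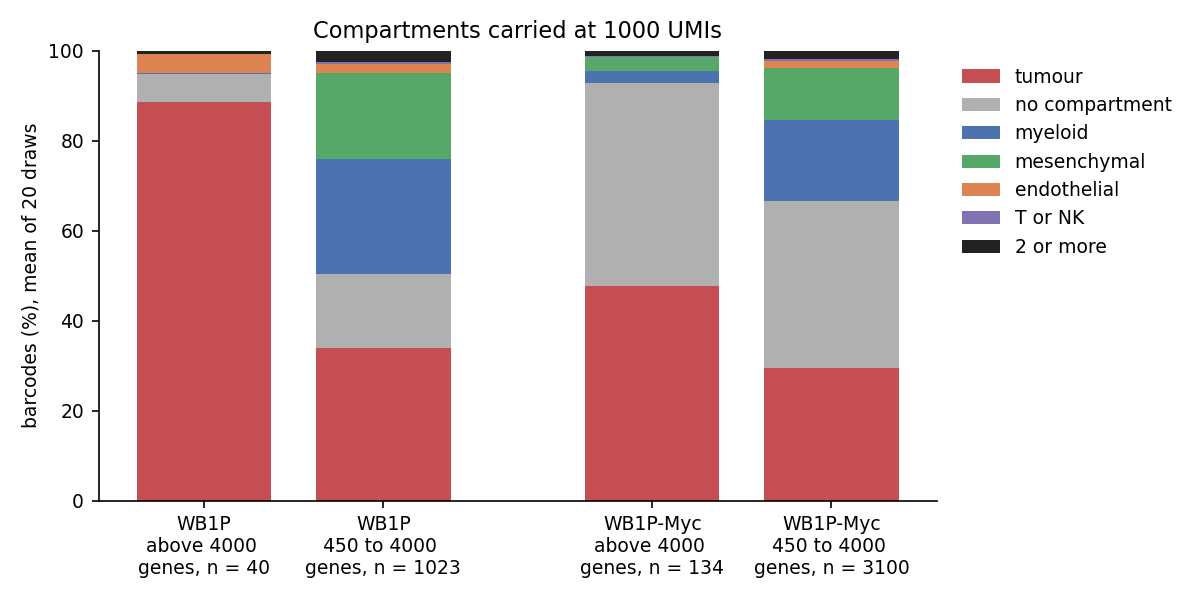
Stacked bars of the percentage of barcodes that carry each compartment alone, none, or 2 or more at 1000 UMIs (mean of 20 draws), for deep and comparator barcodes of both models. The tumour part is larger in the deep bars, 88.5% against 34.0% and 47.8% against 29.5%, and 45.0% of the WB1P-Myc deep barcodes carry no compartment.

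A large group of WB1P-Myc deep barcodes carried no compartment at 1000 UMIs, 45.0% (38.1 to 54.5) against 37.2% of the comparator. At full depth, 49 of the 63 that were so called in most draws had their highest sum in tumour genes and 14 in mesenchymal genes. Their tumour sums ran from 1 to 242 UMIs with a median of 36. They also held a median of 18 UMIs (2 to 430) of Bex1, Bex4, Mfng, Igf2 and Col2a1, a list taken from earlier results on WB1P-Myc tumour cells of these data and therefore not independent. In WB1P only 1 deep barcode was in this group, with 58 tumour UMIs and 0 of that list.

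A second measure left the marker genes out. Each thinned profile was fitted by non-negative least squares as a mixture of the mean profiles of single-compartment comparator barcodes from the other fractions of the model. A compartment with under 10 such barcodes was left out of the fit. Weights were scaled to sum to 1, so a weight is a share among the fitted compartments and not a measure of fit. Tumour had the largest weight in 38 of 40 WB1P deep barcodes (95%, 83.1 to 99.4) against 50.3% of the comparator, and in 130 of 134 WB1P-Myc deep barcodes (97.0%, 92.5 to 99.2) against 69.6%. Of the 63 WB1P-Myc barcodes without a compartment, 62 had tumour as the largest weight, with a median weight of 0.985. Tumour shares by this measure were thus higher in WB1P-Myc than by marker counts.

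The share with tumour as the largest weight was higher in deeper bins of the comparator too. In WB1P it was 43.1% at 450 to 1000 genes, 47.6% above that up to 2000, 76.0% up to 3000, 92.3% up to 4000, 100% up to 5000 and 93.1% above. In WB1P-Myc the same bins gave 54.6%, 71.6%, 85.5%, 89.7%, 96.5% and 98.0%. The intervals of the bins on either side of the 4000-gene limit overlap in both models, at 79.1 to 98.4 and 71.5 to 100 in WB1P and 84.7 to 93.5 and 90.0 to 99.3 in WB1P-Myc, so no step at the limit was detectable by this measure. By markers at 1000 UMIs, tumour alone was carried by 59.9% of the 39 WB1P barcodes just below the limit and 94.5% of the 11 just above it, and by 38.3% and 38.8% in WB1P-Myc. Myeloid barcodes made up 33.6% of the lowest and 3.85% of the third WB1P bin, and 31.6% and 4.08% in WB1P-Myc.

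**Figure D3:**
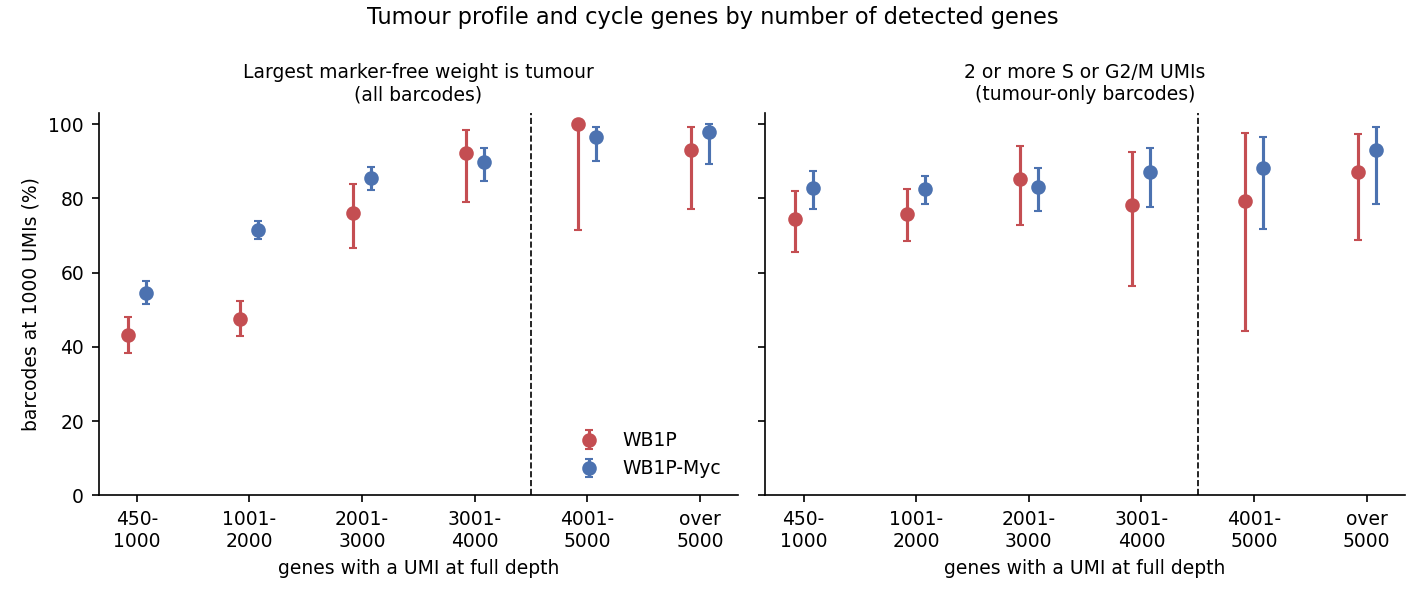
Percentage of barcodes at 1000 UMIs by bin of detected genes at full depth, with 95% Clopper-Pearson bars for counting error and the 4000-gene limit as a dashed line. The share with tumour as the largest marker-free weight climbs over the comparator bins to 92.3% (WB1P) and 89.7% (WB1P-Myc) just below the limit, whereas the bars of the cycle shares overlap between all bins of a model.

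Mixing of lineages was compared next, as the share of barcodes carrying 2 or more compartments. In WB1P it was 0.75% of deep barcodes (0 to 2.5) against 2.42% (1.86 to 3.03) of the comparator. In WB1P-Myc it was 1.27% (0 to 2.99) against 1.86% (1.55 to 2.19). The two-sided Clopper-Pearson intervals, taken at the mean count over draws rounded to a whole barcode, were 0 to 8.81 for the WB1P and 0.181 to 5.29 for the WB1P-Myc deep barcodes, and both contain the comparator value. A lower or a higher mixed share in deep barcodes was therefore not detectable with these numbers of barcodes. Thinned to 2000 UMIs, the deep shares were 6.25% and 4.66% against 6.13% and 5.37%, so the order turned in WB1P. It turned as well in WB1P without fraction 2, at 2.5% against 2.42%, and in WB1P-Myc for members above 5000 genes, at 2.24% against 1.88%.

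No deep barcode carried 2 compartments in most draws, against 19 of 1023 and 44 of 3100 comparator barcodes. In at least 1 of the 20 draws, 1 of 40 (2.5%) and 16 of 134 (11.9%) deep barcodes did, against 78 (7.62%) and 192 (6.19%). Neither of these 2 counts compares the sets at equal depth. Draws from a shallow barcode share many of its UMIs, so its calls repeat, while draws from a deep barcode share few. Only the mean shares per draw given above are at equal depth. The pairs in WB1P-Myc deep barcodes were tumour with mesenchymal (a mean of 0.85 barcodes a draw), tumour with myeloid (0.80) and myeloid with mesenchymal (0.05). The single WB1P case paired endothelial with mesenchymal genes. The epithelial and glial programmes, which both count as tumour, met in a mean of 0.10 of 134 WB1P-Myc deep barcodes against 4.60 of 3100.

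Thinning to 1000 UMIs hides a small partner cell, so raw sums were also set against the size of a whole cell. A deep barcode without a stromal call reached a partner when its sum for another compartment was at least the median of comparator barcodes carrying that compartment alone (57 myeloid UMIs in WB1P and 52 in WB1P-Myc, 113 and 79 mesenchymal, 15 and 18 endothelial, 14.5 and 10 T or NK). This was so for 2 of 38 in WB1P (5.26%, 0.644 to 17.7), both through endothelial genes, and 2 of 126 in WB1P-Myc (1.59%, 0.193 to 5.62), through myeloid and T or NK genes. In comparator barcodes the counts were 5 of 539 (0.928%) and 13 of 2111 (0.616%), and in those of 2000 to 4000 genes 1 of 116 (0.862%) and 8 of 616 (1.30%). The deep intervals contain all of these values. The 539 and 2111 comparator barcodes include 20 and 44 called for 2 or more compartments, while no deep barcode was so called. The sums were taken at full depth, which is higher in the deep set by its selection, so these shares are not compared at equal depth.

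Rates per transcript were taken over the same barcodes, which leaves out those called for 1 stromal compartment alone. The comparator rates include 20 WB1P and 44 WB1P-Myc barcodes called for 2 or more compartments, and the deep rates include none. Myeloid genes made up 2.09 per 10000 UMIs of the WB1P deep set and 2.90 of the comparator, and 1.85 and 2.40 in WB1P-Myc. Mesenchymal genes made up 2.20 and 6.88 in WB1P and 2.51 and 5.24 in WB1P-Myc. For scale, the 1605 WB1P barcodes under 200 genes, which hold few transcripts of any cell, had 51.3 myeloid and 41.4 mesenchymal UMIs per 10000. The levels in the WB1P deep barcodes were below both, but the sets were not chosen alike, so this is a description.

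The second compartment stayed far below the first in most members. Among deep barcodes led by tumour genes, it held a median of 3.08% of all compartment UMIs in WB1P and 6.63% in WB1P-Myc, against 3.23% and 8.00% in comparator barcodes led by tumour genes. The 18 WB1P-Myc barcodes led by mesenchymal genes had a median second share of 20.2%, but 14 of them carried no compartment at equal depth. Without markers, the median second weight was 0.042 in WB1P deep barcodes against 0.056, and 0.022 against 0.035 in WB1P-Myc. The WB1P-Myc difference turned under other settings, and the deep median was 0.00950 higher at 2000 UMIs and 0.0220 higher against barcodes of 2000 to 4000 genes. Within tumour-only barcodes it was 0.0394 against 0.0392 and 0.0153 against 0.0256. A second weight over 0.25 was found in 1.25% of WB1P and 7.57% of WB1P-Myc deep barcodes against 9.12% and 10.8% of the comparator. Comparator barcodes called myeloid or mesenchymal alone had medians of 1795.5 and 2440 UMIs in WB1P, against 29375 in deep barcodes. In WB1P-Myc these were 1669 and 2871 against 20438.5. A partner of that size is a small part of a deep barcode, so these second shares and weights do not show whether one is present.

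**Figure D4:**
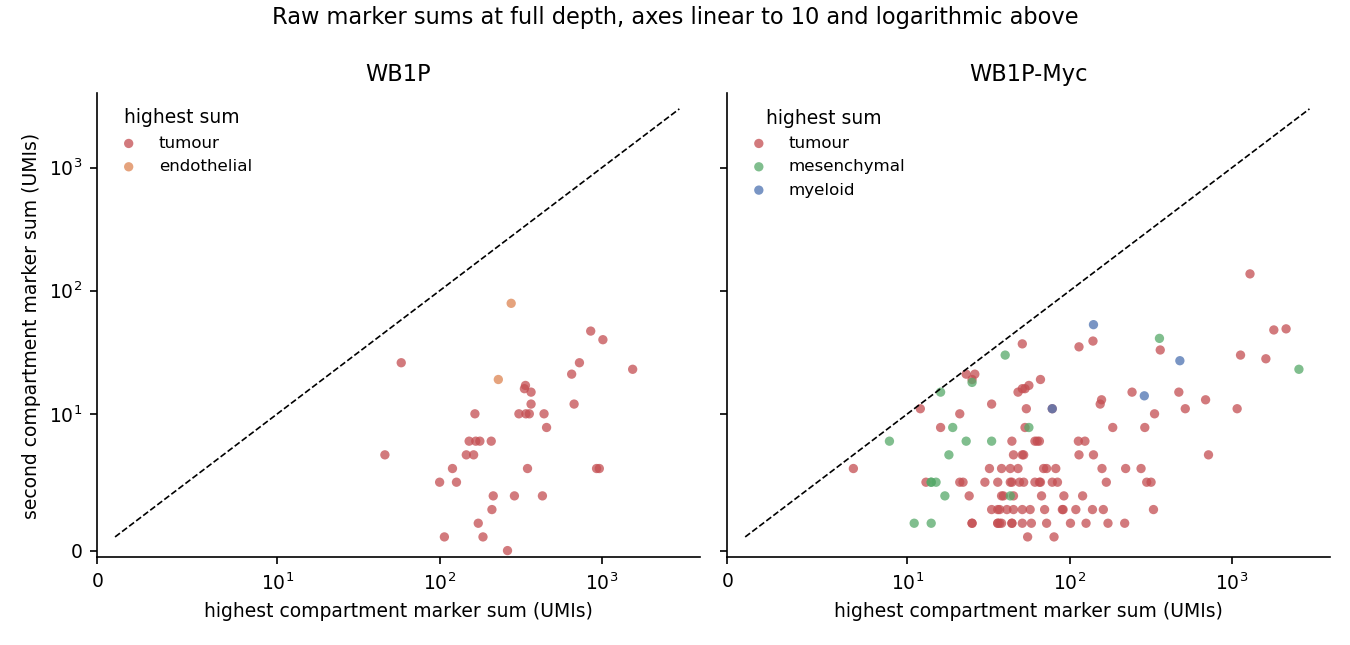
Highest against second-highest compartment marker sum of each deep barcode at full depth, in UMIs, on axes that are linear up to 10 and logarithmic above, with equality as a dashed line. Sums led by tumour genes reach 1547 UMIs in WB1P and 2153 in WB1P-Myc, and the highest second sum among them is 47 and 137, while WB1P-Myc barcodes near the line have low sums on both axes.

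Single members show what a second lineage looked like. The highest second sum in WB1P belonged to a fraction 4 barcode of 39613 UMIs with 276 endothelial, 51 mural, 28 fibroblast and 8 epithelial UMIs, which carried 2 compartments in 6 of 20 draws. It was followed by a fraction 4 barcode of 75800 UMIs with 848 epithelial, 45 fibroblast and 34 endothelial UMIs and a fraction 3 barcode of 82486 UMIs with 1006 epithelial, 40 myeloid and 19 endothelial UMIs. In WB1P-Myc it belonged to a fraction 4 barcode of 82034 UMIs with 1280 epithelial and 137 myeloid UMIs, whose tumour weight was 0.411. The next was a fraction 4 barcode of 20955 UMIs with 140 myeloid and 51 glial UMIs, which carried 2 compartments in 7 draws. The third was a fraction 3 barcode of 230498 UMIs with 2096 epithelial, 57 glial and 44 fibroblast UMIs.

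The deep barcodes called for a stromal compartment in most draws were few, 2 in WB1P and 8 in WB1P-Myc, and those described here were named after their values were seen. In WB1P, the other endothelial one came from fraction 3, with 230 endothelial and 19 epithelial UMIs of 25873. In WB1P-Myc, the clearest fibroblast-led barcode was from fraction 1, with 2568 fibroblast UMIs of 34816, 1 epithelial UMI, 14 glial UMIs and a mesenchymal weight of 1. A fraction 2 barcode of 27478 UMIs held 354 fibroblast and 38 epithelial UMIs. The myeloid barcodes of fraction 3 (477 myeloid UMIs of 17768) and fraction 4 (288 of 17010) held 18 and 1 epithelial and 9 and 13 glial UMIs. Others were weaker, such as a fraction 4 barcode with 78 myeloid UMIs of 17751 and a tumour weight of 0.834. Marker counts and marker-free weights thus named different compartments for some of them.

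Genes of other lineages were compared directly in the tumour-only pools, made of barcodes called tumour in most draws (37 deep and 355 comparator in WB1P, 63 and 900 in WB1P-Myc), as pooled counts scaled to a common total (CPM). Lyz2, lysozyme of myeloid cells, stood at 72.3 CPM in the deep and 79.2 in the comparator pool of WB1P, and at 64.5 and 66.3 in WB1P-Myc. Csf1r, the receptor for macrophage colony-stimulating factor, was at 4.64 and 5.44, and at 1.76 and 3.83. C1qa, a complement subunit made by macrophages, was at 9.29 and 8.54, and at 5.99 and 4.93. The counting intervals of all 6 ratios include 1. Both pools leave out barcodes that carried the myeloid compartment, so the call itself limited these levels, and they are a description.

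The same limit holds for stromal genes, since barcodes carrying those compartments are also left out of both pools. The type I collagen chain genes Col1a1 and Col1a2 were at 13.3 and 88.9 CPM in the WB1P deep pool and 16.3 and 88.5 in the comparator pool. In WB1P-Myc, Col1a2 was at 89.5 against 114 CPM, and Col1a1 had 53 UMIs against 73. Of these, only the Col1a2 log2 ratio in WB1P-Myc, -0.34 (-0.58 to -0.12), had an interval without 0. The pericyte gene Rgs5 had 3 and 3 UMIs in the WB1P pools and 7 and 6 in WB1P-Myc. The endothelial adhesion gene Pecam1 had 2 and 2 UMIs, and 2 and 10. Cdh5, VE-cadherin, had 0 UMIs in both WB1P pools and in the WB1P-Myc deep pool, where 0 allows up to 3 UMIs, and 1 UMI in the comparator pool. Cd3e, a CD3 subunit gene of the T cell receptor complex, had 1 UMI in each deep pool and 0 in each comparator pool.

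Within the tumour compartment, the deep barcodes of WB1P-Myc leaned to the epithelial state. At 1000 UMIs, tumour-only barcodes with epithelial markers alone were 61.5% of the deep (56.3 to 70.7, interval 47.9 to 72.9) and 37.8% of the comparator (36.3 to 40.1, interval 34.7 to 41.0), and those with glial markers alone were 30.4% and 51.6%. The epithelial share of deep barcodes was 73.8%, 55.1%, 58.9% and 65.8% in fractions 1 to 4, against 34.1%, 33.8%, 45.4% and 39.6%. It was higher in the deep set in 4 of 4 fractions. In WB1P, nearly all tumour-only barcodes of both sets were epithelial (99.7% and 98.2%).

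At full depth, 67 of the 112 tumour-led deep barcodes of WB1P-Myc had more epithelial and 45 more glial UMIs. The minority programme held a median of 3.82% of their joint UMIs in the first group and 5.04% in the second, and over 20% in 8 and 5 barcodes. Most deep tumour barcodes thus showed 1 programme by a wide margin. The epithelial-led ones held a median of 24587 UMIs and the glial-led ones 18707.

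Single genes of these lists, which define the call and so restate it, had the following levels. Epcam, an epithelial adhesion molecule, was at 834, 907, 1060 and 961 CPM in the tumour-only deep barcodes of WB1P-Myc fractions 1 to 4 and at 509, 426, 530 and 538 in the comparator, with no overlap between the 2 sets. Its pooled log2 ratio was 0.98 (0.90 to 1.07), and 0.48 when every barcode had equal weight. Krt8, Krt18 and Krt14, keratins of luminal and basal epithelium, had pooled ratios of 1.16, 1.26 and 1.08, but Krt8 and Krt18 ranged from -0.36 to 1.67 and from -1.23 to 1.42 among fractions. Mbp, myelin basic protein, was at 93.4, 167, 133 and 213 CPM against 1155, 1498, 708 and 1016, a log2 ratio of -2.82 (-2.97 to -2.68). Sox10, the neural crest regulator, had -0.91 (-1.09 to -0.74).

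In WB1P these genes were near even. Epcam stood at 3927, 3662 and 2526 CPM in fractions 2 to 4 of the deep pool and at 3880, 3053 and 2936 in the comparator, which overlap. The pooled log2 ratios were -0.01 for Epcam, 0.22 for Krt8, 0.15 for Krt18 and -0.26 for Krt14. Sox10 was 0.05, and Mbp had only 6 UMIs in the deep pool (3.98 CPM). Epcam, Krt8 and Krt18 had a UMI in all 40 WB1P deep barcodes, against 70.9%, 60.4% and 72.4% of those of WB1P-Myc.

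The cell-cycle state was compared in tumour-only barcodes, so that stromal compartments did not enter. The epithelial and glial shares of these barcodes still differed in WB1P-Myc, and their part in the cycle shares was not tested. For the pooled list levels, values weighted by these states are given below. At 1000 UMIs, at least 2 UMIs of the 42 S or the 55 G2/M genes were held by 84.8% of WB1P deep barcodes (77.1 to 94.4, interval 69.7 to 95.2) against 76.8% of the comparator (75.2 to 79.4, interval 71.9 to 81.1). In WB1P-Myc the shares were 90.6% (85.7 to 97.2, interval 80.7 to 96.5) and 83.1% (81.5 to 84.9, interval 80.5 to 85.4). The differences were 7.94 percentage points (1.42 to 16.4 over draws) and 7.54 (2.53 to 14.1). All 20 draws had the deep share higher, but the counting intervals overlap in both models. Thinned to 2000 UMIs, the differences were 1.85 and 1.47 points, and at 600 UMIs 6.64 and 13.0. With at least 3 cycle UMIs they were 12.6 and 14.7, and for members above 5000 genes 12.3 and 10.3.

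This share is high in other compartments too, and how much of it is background was not tested. Among comparator barcodes, 55.7% of myeloid and 46.8% of mesenchymal ones in WB1P passed the same limit, and 66.2% and 64.1% in WB1P-Myc, at median depths of 1795.5 and 2440 UMIs and of 1669 and 2871 before thinning. The share therefore gives no number of dividing cells. Passing the limit is a matter of list UMIs per 1000, and the mean of these was 2.23 against 1.90 for S and 5.70 against 4.64 for G2/M in WB1P, and 2.51 against 1.96 and 7.28 against 5.62 in WB1P-Myc.

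By fraction, the deep cycle share was 84.2%, 86.6% and 83.4% in WB1P fractions 2 to 4 against 75.3%, 75% and 76.4%, with the deep value higher in all 3. In WB1P-Myc it was 76.4%, 93.2%, 91.5% and 91.3% against 80.7%, 82.7%, 86.6% and 83.1%, so fraction 1, with 6 deep tumour-only barcodes, went the other way. The SD of the difference over fractions was 2.28 points in WB1P (n = 3) and 6.50 in WB1P-Myc (n = 4). The WB1P-Myc difference was thus little larger than the spread between its fractions. Among WB1P-Myc barcodes without a compartment, the deep share was 92.0% (interval 81.6 to 97.2) against 85.1% (82.9 to 87.1).

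Against comparator barcodes of 2000 to 4000 genes, which are nearer in depth, the difference was 2.36 points in WB1P (-10.2 to 12.5, above 0 in 12 of 20 draws) and 6.37 in WB1P-Myc (1.44 to 12.5, above 0 in 20). In bins of detected genes the WB1P cycle shares were 74.5%, 75.7%, 85.3%, 78.3%, 79.3% and 87.0%, and those of WB1P-Myc 82.7%, 82.6%, 83.0%, 87.1%, 88.2% and 93.1%. The WB1P-Myc G2/M mean was 5.34, 5.26, 5.98, 7.52, 7.71 and 6.80 UMIs per 1000 in the same bins. In WB1P-Myc the higher values thus began below the 4000-gene limit. The WB1P G2/M mean was 4.51, 4.43, 5.72, 4.51, 5.18 and 5.91, with no steady order over the bins.

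Pooled at full depth, where a barcode weighs by its UMIs, the lists were nearly even. The S list was at 2231 CPM in the WB1P deep pool and 2045 in the comparator, a log2 ratio of 0.13, and the G2/M list at 5440 and 4661, a ratio of 0.22. In WB1P-Myc the S list was at 2121 and 2104 (0.01) and the G2/M list at 6388 and 5997 (0.09). All 4 ratios were smaller than the SD over fractions, which was 0.31, 0.26, 0.41 and 0.31. With equal weight per barcode the ratios were 0.29, 0.30, 0.23 and 0.32. Leaving out 1 fraction turned 3 of them, to -0.03 for WB1P S without fraction 4, -0.02 for WB1P-Myc S without fraction 2 and -0.04 for WB1P-Myc G2/M without fraction 3, and against barcodes of 2000 to 4000 genes the S ratios were -0.08 and -0.13 and the G2/M ratios 0.18 and -0.05. With thinning redrawn for that comparator the S ratios were -0.12 and -0.00038 and the G2/M ratios 0.04 and 0.03, so the sign of the WB1P-Myc G2/M ratio depended on the draws. The comparator was also weighted to the deep pool's UMIs in each tumour state (epithelial, glial, both or neither). The WB1P-Myc S ratio was then -0.14 and the G2/M ratio -0.08, so both turned, while those of WB1P were 0.12 and 0.22. The 3 deepest barcodes held 19.2% of the WB1P and 27.1% of the WB1P-Myc deep tumour-only UMIs.

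Over all genes with at least 50 UMIs in the 2 pools of a model, 7.70% of 6452 genes in WB1P were more than 1.5-fold higher and 3.60% more than 1.5-fold lower in the deep pool. In WB1P-Myc these were 12.1% and 10.7% of 9355 genes. The balance depended on the scaling. In WB1P 497 genes were up and 232 down when scaled to total UMIs, against 350 and 310 under edgeR and 356 and 302 under DESeq2 scaling. In WB1P-Myc the counts were 1129 and 1005, and the order turned to 1000 and 1105 under edgeR and 1008 and 1100 under DESeq2 scaling. With the comparator weighted to the deep pool's UMIs in each tumour state, the WB1P-Myc counts were 867 and 425. The medians of all genes were 0.07 and 0.04. Of the S list, 4 of 34 tested genes were past 1.5-fold up and 0 down in WB1P (median 0.16), and 0 up and 1 down of 42 in WB1P-Myc (median 0.04). Of the G2/M list, 8 of 48 were up and 1 down in WB1P (median 0.22), and 9 up and 2 down of 53 in WB1P-Myc (median 0.05).

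The cycle genes did not move as 1 block. Ube2c, the ubiquitin-conjugating enzyme of the anaphase-promoting complex, was at 383, 176 and 530 CPM in the deep tumour-only barcodes of WB1P fractions 2 to 4 and at 169, 146 and 182 in the comparator, a pooled log2 ratio of 0.99 (0.77 to 1.22). In WB1P-Myc it was at 129, 82.2, 255 and 151 against 151, 144, 142 and 137 (0.38, 0.21 to 0.56), and lower in 2 of 4 fractions. Cdk1, the mitotic kinase, had ratios of 1.14 (0.65 to 1.64) and 0.51 (0.25 to 0.76), and its partner cyclin Ccnb1 0.83 (0.39 to 1.27) and 0.61 (0.32 to 0.91). Both went below 0 in at least 1 fraction of each model.

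The proliferation antigen Mki67 was at 94.9 CPM in the deep and 122 in the comparator pool of WB1P (-0.36, -0.70 to -0.03) and at 171 and 186 in WB1P-Myc (-0.13). Top2a, the topoisomerase of mitotic chromosomes, was at 154 and 194 in WB1P (-0.33, -0.60 to -0.07) and at 642 and 641 in WB1P-Myc (0.00). These 2 G2/M genes were thus not higher in the deep pools. Among S genes, Rrm2, a subunit of ribonucleotide reductase, had ratios of 0.77 (0.35 to 1.21) and 0.39 (-0.01 to 0.79). Pcna, the replication clamp, had 0.25 (0.02 to 0.49) and -0.15 (-0.36 to 0.05). The helicase subunits Mcm5 and Mcm6 had 0.18 and 0.26 in WB1P and 0.42 and 0.06 in WB1P-Myc, and the cyclin Ccne2 0.33 and 0.12.

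Among the 9 lists, nuclear-retained and mitochondrial transcripts had the pooled ratios farthest from 0 against the whole comparator in both models. Malat1, a long noncoding RNA kept in the nucleus, was at 9396, 9536 and 13128 CPM in the deep tumour-only barcodes of WB1P fractions 2 to 4 and at 24628, 19803 and 22309 in the comparator. In WB1P-Myc it was at 5800, 8827, 3344 and 6354 against 9814, 9657, 9619 and 9068. It was lower in the deep set in each of these 7 fractions, with no overlap between the sets, by pooled log2 ratios of -1.01 (-1.04 to -0.98) and -0.87 (-0.89 to -0.84). Fraction 1 of WB1P, which has no deep barcode, had a comparator level of 9595, in the range of the deep values.

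The list of nuclear-retained RNA, in which Malat1 gave nearly all UMIs beside Neat1 and Kcnq1ot1, took 1.10% of deep and 2.21% of comparator UMIs in WB1P and 0.550% and 0.999% in WB1P-Myc. Its pooled ratios were -1.0 (SD over fractions 0.31, n = 3) and -0.86 (0.58, n = 4), and 2 and 3 of its 3 tested genes were past 1.5-fold down, beside 3.60% and 10.7% of all genes. In bins of detected genes, tumour-only barcodes held 27.8, 25.1, 19.5, 16.6, 20.9 and 10.9 of its UMIs per 1000 in WB1P, and 20.9, 12.2, 7.87, 7.70, 8.53 and 5.72 in WB1P-Myc. The level was thus lower in deeper bins of the comparator as well, and the ratio against barcodes of 2000 to 4000 genes was -0.73 and -0.44.

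The mitochondrially encoded genes took 2.57% of deep and 3.84% of comparator tumour-only UMIs in WB1P, a ratio of -0.58 (SD 0.05, n = 3), and 2.01% and 3.04% in WB1P-Myc, a ratio of -0.60 (0.28, n = 4). Against barcodes of 2000 to 4000 genes the ratios were nearer to 0, at -0.32 and -0.35. The pooled share was lower in the deep set in all 7 fractions. In WB1P 2 of 14 genes were past 1.5-fold down and 1 up, beside 3.60% down and 7.70% up over all genes, with a median of -0.13 and 5 genes above 0. In WB1P-Myc 3 of 14 were down and 0 up, beside 10.7% and 12.1%, with a median of -0.36 and 1 gene above 0. Mitochondrial share is also part of the rule that admits barcodes to both sets, at a limit that no deep barcode reached. At 1000 UMIs, deep tumour-only barcodes had a median of 695 genes against 656 in WB1P and 685 against 658 in WB1P-Myc. Gene number is what selected the barcodes, so these medians are a description.

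Against the whole comparator, the other lists were closer to even. Dissociation stress genes were higher in the deep pool by 0.14 (SD 0.07, n = 3) and 0.29 (0.17, n = 4) and in all 7 fractions, with 3 of 15 genes past 1.5-fold up and 1 down in WB1P and 5 up and 0 down in WB1P-Myc. The shares over all genes were 7.70% up and 3.60% down in WB1P and 12.1% and 10.7% in WB1P-Myc, for this and the following lists. Among them, and named after their values were seen, Junb, of the AP-1 complex, had ratios of 0.63 and 0.66, and Hsp90aa1, a cytosolic heat shock protein, was the gene past 1.5-fold down in WB1P at -0.62, with -0.16 in WB1P-Myc. Nucleolar ribosome biogenesis genes were at -0.25 (0.13) and -0.05 (0.30), with 1 of 16 tested genes past 1.5-fold up in WB1P and 0 of 18 past it in WB1P-Myc. They were below 0 in all 3 WB1P fractions. Against barcodes of 2000 to 4000 genes, nucleolar genes were at -0.37 and -0.08 and dissociation stress genes at 0.19 and 0.34. In WB1P the nucleolar ratio was then farther from 0 than the mitochondrial one, -0.32. Glycolysis genes were at 0.17 (0.38) and 0.08 (0.18), with 1 of 14 up in each model. Cytosolic ribosomal protein genes took 15.4% and 15.7% of UMIs in WB1P and 21.3% in both WB1P-Myc pools, with 1 and 0 of 83 genes past 1.5-fold.

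Targets of p53, the product of the deleted Trp53, were at 0.03 (SD 0.19) and 0.14 (0.73), with 1 of 4 tested genes up in WB1P, and 1 up and 1 down of 5 in WB1P-Myc, beside 7.70% up in WB1P and 12.1% up and 10.7% down in WB1P-Myc over all genes. With 4 and 5 genes, these counts are too few to set against those shares. Cdkn1a, the cell-cycle inhibitor p21, was at 467, 64.9, 40.3 and 47.7 CPM in the deep tumour-only barcodes of WB1P-Myc fractions 1 to 4, against 40.7, 42.5, 58.1 and 58.2. The fraction 1 value rests on 130 UMIs in 6 barcodes, and 1 barcode of 127845 UMIs held 123 of them. In WB1P, Cdkn1a was at 154 and 179 CPM (-0.21, -0.48 to 0.05).

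Myc, the transgene of the second model, was at 151 CPM in its deep and 148 in its comparator tumour-only pool (0.03, -0.16 to 0.21). In WB1P the levels were 97.5 and 65.2 (0.58, 0.18 to 0.98). Transgene and endogenous transcripts share a gene symbol, and whether transcripts of the construct were counted is not stated. A UMI of Myc was found in 77.5% of WB1P and 85.8% of WB1P-Myc deep barcodes.

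**Figure D5:**
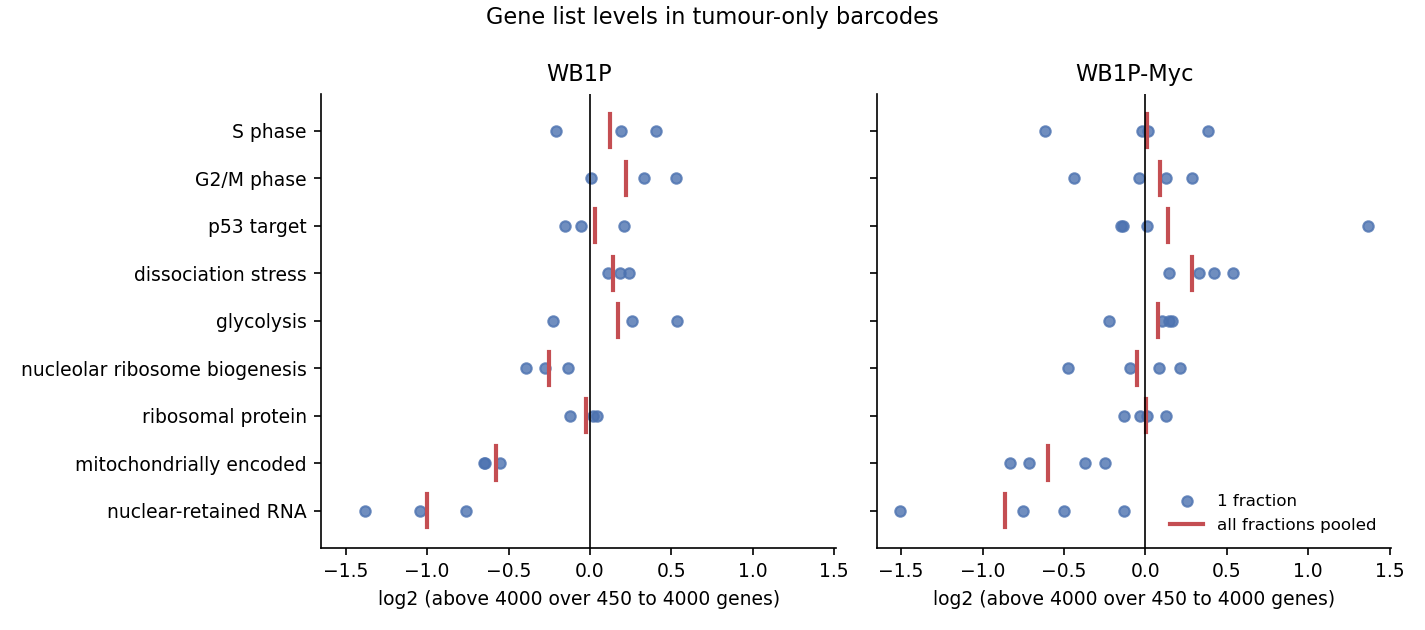
Log2 ratio of pooled CPM in deep over comparator tumour-only barcodes for 9 gene lists, with 1 point per droplet fraction (3 in WB1P, 4 in WB1P-Myc) and the pooled value as a red line. Nuclear-retained RNA and mitochondrially encoded genes lie below 0 in all 7 fractions and dissociation stress above it, while the points of both cycle lists spread from -0.62 to 0.53.

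The genes with the highest and lowest pooled ratios, taken among genes on the same side of 0 in every fraction with at least 5 deep tumour-only barcodes, rested in part on single barcodes. In WB1P these were Mcpt8 (3.56), a mast cell protease gene known from basophils, Serpinb2 (2.75), Sec22a (1.81), Rnf145 (1.74), Wnt5b (1.67), Kif20a (1.61), a mitotic kinesin, and Dyrk3 (1.51). For Mcpt8, 63 of the 83 UMIs came from 1 barcode, and for Serpinb2 49 of 55. Kif20a and Dyrk3 had a UMI in 20 and 27 of the 37 deep tumour-only barcodes, with at most 10 and 5 in any, so their ratios do not rest on 1 barcode.

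The lowest ratios in WB1P were those of Cx3cr1 (-4.45), the fractalkine receptor of myeloid cells, Cytl1 (-3.05), Dcpp1 (-3.03), Arg1 (-2.45), arginase of myeloid cells, Dcpp2 (-2.38), Gm26870 (-2.33), Plcb1 (-1.75) and Kif21a (-1.57). Cx3cr1 had 3 UMIs in the deep and 56 in the comparator tumour-only pool, 33 of them in 1 barcode, and Arg1 had 9 and 42, with 31 in 1 barcode. Dcpp1 and Dcpp2 are close relatives whose reads may be hard to separate. They had 76 of 245 and 46 of 120 comparator UMIs in 1 barcode each. Others were spread over many barcodes, such as Kif21a with at most 3 of its 61 comparator UMIs and Plcb1 with at most 2 of 43 in any.

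In WB1P-Myc the highest ratios were those of Fcgbp (3.45), Myh11 (3.27) and Acta2 (2.72), both genes of smooth muscle, AW112010 (3.06), Alox15 (2.95), Map3k8 (2.92) and Pdzk1ip1 (2.80). The fraction 4 barcode of 82034 UMIs, which also held 137 myeloid UMIs, gave 76 of 102 UMIs of Fcgbp and 91 of 143 of AW112010. A fraction 2 barcode of 34200 UMIs gave 37 of 45 of Myh11 and 94 of 118 of Acta2. Map3k8 had a UMI in 21 deep tumour-only barcodes, with at most 10 in any. The lowest were Fabp3 (-4.31), Fa2h (-4.22), Ly6g6f (-4.22), Sema6d (-4.20), Mobp (-3.65), Mag (-3.34), Fez1 (-3.14) and Cdh20 (-3.01). Mag and Mobp encode myelin proteins and Fa2h a lipid hydroxylase of myelin, and none of these was used to call the glial state. Glial-only barcodes were 30.4% of the deep and 51.6% of the comparator tumour-only set, and these ratios are not weighted for that difference. Mag had 50 UMIs in 18 of 63 deep barcodes and 651 UMIs in 196 of 900 comparator barcodes. For Fabp3, 37 of 51 comparator UMIs came from 1 barcode.

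Barcodes that differ by 1 base were counted, since they bear on which barcodes are separate. In WB1P, 34 of 40 deep barcodes (85.0%) had another barcode, listed for the same fraction, that differs by 1 base, and in WB1P-Myc 14 of 134 (10.4%). Of the 192 comparator barcodes with such a neighbour, 160 had a deep one. The 216 pairs were all with a smaller neighbour, of 0.389 to 10.0% of the UMIs of the deep barcode (median 1.49%). Deep barcodes with such a neighbour had a median of 42334.5 UMIs and those without 19336.5. These 160 comparator barcodes are 8.57% of the WB1P and 1.37% of the WB1P-Myc comparator, and of the 111 with at least 1000 UMIs all but 10 carried tumour alone. They were 60 of the 355 tumour-only comparator barcodes in WB1P and 41 of the 900 in WB1P-Myc. Whether such neighbours hold transcripts of the same cell as the deep barcode was not tested. Without them the WB1P cycle difference was 13.0 points, against 7.94 with them. None of the 174 deep barcodes was listed in another HiSeq table.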

How the data were processed

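The authors dissociated WB1P and WB1P-Myc tumours and deposited Drop-seq UMI counts, 1 raw value per gene symbol and barcode, in 16 tables of 1000 barcodes (4 fractions per model on a MiSeq and on a HiSeq2500). The submitters' processing notes name Scanpy and build mm10. The aligner was not given in the sources used here. No normalisation was seen in the deposited counts. A merged table was not used.

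HiSeq tables gave the main values and held between 256985 and 4960334 UMIs each. Barcodes of over 4000 genes were compared with those of 450 to 4000 genes, both under 20% mitochondrial UMIs. Barcodes were thinned without replacement to 1000 UMIs, and a compartment was carried at 3 UMIs from 2 genes. A single draw was planned. Averaging over 20 draws was decided after single draws were seen to differ. Classes for pooled profiles are those of most draws. Marker-free weights used non-negative least squares on 3000 genes. Of the 15 myeloid genes 14, and of the 6 B and plasma cell genes 5, were in the tables, and all genes of the other lists. No doublet caller was run, and no doublets were removed.

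Levels are pooled CPM, and ratios are log2 of deep over comparator with no pseudocount. Intervals are 95%, exact (Clopper-Pearson for shares, conditional binomial for ratios), and cover counting error only, as does the limit of 3 counts for a count of 0. They treat UMIs and barcodes as independent. No test was run, because each model is 1 sample, and the SD over fractions is technical. Named genes were 28 genes given whatever their values and, per model, the 8 highest and 8 lowest ratios among genes with at least 50 UMIs in both pools together, not mitochondrial and on the same side of 0 in every fraction with at least 5 deep tumour-only barcodes. 1 gene so chosen in each model is not reported here. The 3 deep barcodes with the highest second sum per model were also named. Members and lists were chosen with earlier results of these data known. Programs were Python 3.11.15, numpy 2.4.6, scipy 1.17.1, pandas 2.3.3 and, for alternative scalings of the pooled counts, edgeR 4.0.16 and DESeq2 1.42.0 under R 4.3.3. The scripts were tested on simulated data. Alternatives covered depth, seed, limits, gene cut-offs, comparator, fractions, scaling and the MiSeq tables. Equal weight per barcode, leaving out 1-base neighbours, raw sums against single barcodes and bins of detected genes were chosen after seeing the data.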

Additional observations from a re-analysis of the deposited data

Results flagged for a closer look

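Values of 4 fractions were compared by the gap of the farthest one to its nearest neighbour relative to the range, a rule that chance meets in about 1 in 20 groups. Many groups were compared, so some values would be flagged by chance alone. WB1P fraction 1 stood apart in total UMIs (256985) and in comparator barcodes (65). Of those with 1000 UMIs or more, 87.5% carried tumour alone, 98.2% of the tumour-only ones had cycle transcripts, and these held 9.11 G2/M UMIs per 1000. This fraction had no deep barcode, so it enters only the comparator. WB1P-Myc fraction 3 stood apart in total UMIs (4960334). It also held the most deep barcodes, 52 of 134.

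WB1P-Myc fraction 1 was low in the cycle share of deep tumour-only barcodes (76.4%) and in their G2/M mean (6.07 UMIs per 1000), both from 6 barcodes. Its p53 target log2 ratio of 1.37 was far above the other 3 fractions, with 123 of its 130 Cdkn1a UMIs in 1 barcode. The glycolysis log2 ratio of WB1P-Myc fraction 2, -0.22, was below the other fractions.

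The MiSeq tables, which no comparison above uses, list 23 barcodes with over 4000 genes. None of these is deep in the HiSeq table of its fraction and 1 is listed there. Of the 10 in WB1P, 91.5% carried tumour alone at 1000 UMIs, and of the 13 in WB1P-Myc 64.2%. The HiSeq deep barcodes are listed in the MiSeq table of their fraction in 12 of 174 cases.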

How the results depend on the processing

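The depth of thinning and the limit for carrying a compartment set the marker shares. At 600 UMIs, 26.5% of the WB1P-Myc deep barcodes carried tumour alone, and 1.11% (WB1P) and 0.854% (WB1P-Myc) of comparator barcodes were mixed. At 2000 UMIs these were 67.3%, 6.13% and 5.37%, with deep mixed shares of 6.25% and 4.66%. With a limit of 2 UMIs they were 57.4%, 7.11% and 5.21%, and with 5 UMIs 26.2%, 0.288% and 0.452%, with 0.112% mixed among WB1P-Myc deep barcodes. Leaving out Col1a1, Col1a2 and Col3a1 gave 1.21% mixed in the WB1P-Myc comparator. The WB1P-Myc second weight, lower in deep barcodes by the main measure (-0.0127), was higher by 0.00950 at 2000 UMIs and by 0.0220 against barcodes of 2000 to 4000 genes, and the WB1P difference was then -0.0293.

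The WB1P cycle difference was 1.85 points at 2000 UMIs, 10.7 with 20 other draws, 12.3 for members above 5000 genes, 1.94 against 2000 to 4000 genes, 12.6 with at least 3 cycle UMIs (14.7 in WB1P-Myc), 13.0 (9.04 in WB1P-Myc) without 1-base neighbours and 16.9 in the MiSeq tables. That of WB1P-Myc was 1.47 points at 2000 UMIs, 13.0 at 600 UMIs and 10.3 above 5000 genes. The WB1P-Myc S ratio was -0.0320 under edgeR and -0.0302 under DESeq2 scaling, and -0.14 with the comparator's tumour states reweighted (G2/M -0.0791). With thinning redrawn for the smaller set, it was -0.00038 against 2000 to 4000 genes (-0.12 in WB1P). Above 5000 genes WB1P-Myc had 49 members, 62.8% tumour alone, and above 3500 genes 216. The MiSeq tables gave 10 and 13 members, 1.09% mixed in the WB1P comparator and 0% in WB1P-Myc deep barcodes, where a count of 0 allows up to 23.1%. Genes past 1.5-fold up and down numbered 1064 and 650 (WB1P) and 1781 and 1566 (WB1P-Myc) with at least 20 UMIs, and 2412, 1873, 3120 and 2935 without that filter. There were 425 down in WB1P-Myc with the comparator's tumour states reweighted and 384 in WB1P with equal weights. The cause was not tested.

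Leaving out 1 fraction gave 24 to 40 members in WB1P and 82 to 115 in WB1P-Myc, tumour shares of 83.3 to 92.5% and 44.9 to 49.9%, mixed deep shares of 0 to 2.5% and 0.825 to 1.40%, mixed comparator shares of 1.84 to 2.65% and 1.66 to 2.11%, second weight differences of -0.0243 to -0.0180 and -0.0163 to -0.0108, cycle differences of 6.78 to 10.3 and 7.25 to 8.86 points, S ratios of -0.0333 to 0.24 and -0.0243 to 0.15, and G2/M ratios of 0.03 to 0.30 and -0.0412 to 0.21. Under the other alternatives, 122 values moved by less than the fraction SD, the counting interval or 1.5 times, 40 by more, and 8 turned direction. The limits on these results are few deep barcodes and no values per mouse. No paired analysis was possible because each model is 1 sample and no result comes from a test.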
